A study of Rattus norvegicus with 6 samples.

Results

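The tripartite motif (TRIM) family comprises proteins that carry, from the amino end, a RING finger, 1 or more B-box zinc fingers and a coiled coil, followed in most members by a carboxy-terminal domain that binds substrates. The RING finger recruits a ubiquitin-loaded E2 enzyme, so most members act as E3 ubiquitin ligases. Trim14, Trim16, Trim29, Trim44 and Trim66 are known to lack a RING, so the name ubiquitin ligase does not cover every gene below. Family members were taken as all protein-coding genes whose symbol is Trim followed by a digit. There were 55 of them among the 32623 genes of the table, each symbol occurring once, and 35 reached an average of 1 FPKM (fragments per kilobase of transcript, scaled to the depth of the library) over all libraries.

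The data are RNA-sequencing libraries of primary ventricular cardiomyocytes from Sprague-Dawley rats aged 1 to 3 days. In 3 libraries (siNC) the cells had received a negative-control small interfering RNA, and in 3 (siMettl3) one against Mettl3, which encodes the enzyme that writes N6-methyladenosine on messenger RNA. Both groups had the small interfering RNA for 24 h and then the bacterial endotoxin LPS for 6 h, so no value here is a response to LPS. The cells were 1 isolate pooled from several rats, and p-values therefore measure the spread between these libraries, which may be technical.

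Total counts were 71202469 to 76668751 per library. Mettl3 was lower in the siMettl3 libraries, at 10.3 ± 0.355 against 16.9 ± 1.47 FPKM (SD, n = 3; limma adjusted p = 0.00661). All 10 cardiomyocyte markers were found and tested, with Tnnt2 at 3660 ± 221 and Myh6 at 2300 ± 166 FPKM in siNC. Of 7 skeletal muscle markers found, the regulators Myf5 and Pax7 had a count of 0 in every library, and 1 marker reached 1 FPKM. That list summed to 15.3 to 16.0 FPKM in siNC. Markers of other cell types were present too, with fibroblast markers summing to 1510 to 1580 and smooth muscle markers to 3710 to 4220 FPKM in siNC.

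In muscle, TRIM genes are known for 2 kinds of work. Trim63 (MuRF1), Trim55 (MuRF2) and Trim54 (MuRF3) sit at the sarcomere and on microtubules and take part in the turnover of contractile proteins, and Trim72 (MG53) patches injured plasma membrane. In innate immunity, Trim25 activates the RNA sensor RIG-I by ubiquitination, Trim21 is a cytosolic antibody receptor, Trim5 is a restriction factor of retroviral capsids, and many of these genes are induced by interferon through the interferon-stimulated response element (ISRE).

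The sequences below are shown because Trim21, Trim25 and Trim26 are among the interferon-inducible members called lower and Trim63 is the muscle member called higher. They are the bases before the start of the RefSeq transcript in build GRCr8, leaving out bases that RefSeq places inside the gene. Trim21 is the exception, where the 30 bases just before the start are given, which RefSeq places inside the gene. Capitals mark an ISRE core (GAAA, any 2 bases and a second GAAA, on either strand) in Trim21 and Trim26, and in Trim63 an E-box (CANNTG) or a FoxO site (GTAAACA on either strand). The Trim25 stretch held no ISRE core. Nor did the 250 bases before Trim5, also called lower, or before Trim34, called higher, which are not shown.
Trim21, chr1:166399372-166399401, minus strand: tacctctgagagGAAACTGAAAGTGAAAtt
Trim26, chr20:1736390-1736561, minus strand: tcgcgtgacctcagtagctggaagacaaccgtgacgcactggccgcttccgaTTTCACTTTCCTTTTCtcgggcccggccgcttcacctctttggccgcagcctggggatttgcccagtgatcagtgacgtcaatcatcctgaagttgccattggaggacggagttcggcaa
Trim25, chr10:74309774-74310023, plus strand: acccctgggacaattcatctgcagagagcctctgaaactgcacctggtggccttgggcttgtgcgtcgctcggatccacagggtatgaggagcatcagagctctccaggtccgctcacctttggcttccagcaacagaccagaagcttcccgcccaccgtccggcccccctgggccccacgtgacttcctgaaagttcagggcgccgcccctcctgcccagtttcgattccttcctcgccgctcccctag
Trim63, chr5:151816986-151817208, plus strand: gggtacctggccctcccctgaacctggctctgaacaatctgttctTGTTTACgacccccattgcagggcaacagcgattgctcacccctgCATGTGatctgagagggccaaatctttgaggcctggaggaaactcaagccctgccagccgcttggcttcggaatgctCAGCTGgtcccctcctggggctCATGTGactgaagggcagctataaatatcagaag

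A RefSeq promoter was found for 45 of the 55 genes and for 31 of the 35 with at least 1 FPKM. Over the 250 bases before the start, Trim21 and Trim26 were the 2 of these 31 with an ISRE core, each with 2 overlapping matches. In Trim21 the matches began 18 and 12 bases before the start, and in Trim26 they began 198 and 192 bases before it, on the opposite strand. Those of Trim21 lie in the 70 bases of its window that RefSeq places inside the gene, and those of Trim26 lie outside its gene. Of all 33469 promoters, 3.41% held the motif. Trim63 and Trim11 were the 2 of the 31 with a FoxO site, each with 1 match, 205 and 104 bases before the start, and 3.21% of all promoters held that motif. All 250 bases of the Trim11 window lie inside its RefSeq gene. Trim63 also held 3 E-boxes, a motif found in 15 of the 31 genes and in 65.5% of all promoters. Trim25, Trim5, Trim72 and Trim68 held 3 each as well, and those of Trim25 are left in lower case above. These are matches of letters in 1 window and do not show binding.

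The level of the TRIM genes spanned the range from 0 counts to over 100 FPKM, and the muscle members were among the highest. Trim55 was the most abundant, at 118 ± 1.85 FPKM in siNC. It was followed by Trim28, a co-repressor of zinc-finger transcription factors, at 93.8 ± 5.16, Trim54 at 60.2 ± 3.52, Trim25 at 60 ± 8.56 and Trim5 at 51.2 ± 0.965 FPKM. Trim54 and Trim25 thus stood within their spread of each other in siNC. Summed over all 55 genes, the level was 739 to 751 FPKM in siNC and 750 to 766 FPKM in siMettl3, so the ranges overlapped at their ends. These sums are of FPKM without scaling between libraries.

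The 20 genes under 1 FPKM had at most 329 counts in a library, and 9 had a count of 0 in at least 1 library. Trim31, Trim40 and Trim42 had a count of 0 in all. The threshold fell between Trim17, at 1.16 ± 0.192 and 1.45 ± 0.0881 FPKM in siNC and siMettl3, and Trim36, at 0.898 ± 0.0645 and 0.952 ± 0.0920 FPKM. Of the COS-box relatives of Trim36 that bind microtubules (Trim9, Trim46 and Trim67), none reached 1 FPKM. Among the interferon-inducible genes, Trim14, Trim30c and Trim69 were below it as well. In the 35 genes above the threshold, counts ran from 128 to 24647 per library. For Trim45, at 241 to 304 counts, counting error alone is of the order of the spread within a group. Trim17, at 213, 156 and 153 counts in siNC, and Trim62, at 128, 165 and 185, spread more widely than counting error there.

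**Figure D1:**
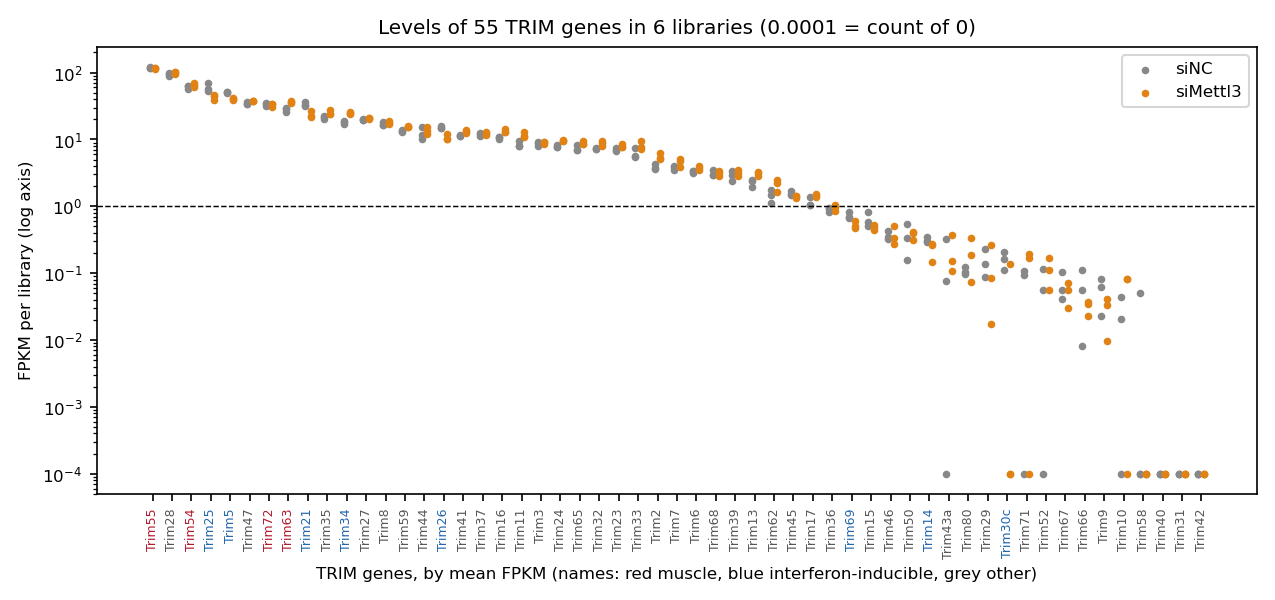
FPKM of each of the 55 TRIM genes in each library on a log axis, ordered by mean, with grey points for siNC, orange points for siMettl3 and a dashed line at 1 FPKM. Trim55 stands highest, the 35 genes that averaged 1 FPKM or more lie to the left, and Trim31, Trim40 and Trim42 sit at 0.0001, the value that stands for a count of 0.

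Fold changes are siMettl3 relative to siNC. They come from limma on log2(FPKM + 1), fitted to the 13105 genes that averaged 1 FPKM or more, and a Benjamini-Hochberg adjusted p under 0.05 was the threshold. Of the 35 TRIM genes 4 fell and 6 rose, and 25 did not pass. The genes that fell were Trim21, Trim25, Trim26 and Trim5, and those that rose were Trim34, Trim11, Trim2, Trim63, Trim16 and Trim24. Over all genes 10.9% passed, 4.40% lower and 6.53% higher, against 11.4% lower and 17.1% higher in the family. The median log2 fold change was 0.16 in the family and 0.07 over all genes tested.

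The number of rises depended on the method more than the number of falls did. edgeR (quasi-likelihood test on the counts, adjusted p under 0.05) called the same 4 genes lower and only Trim34 and Trim63 higher, where 6.59% and 3.39% of all genes passed lower and higher (9.98% in all). DESeq2 called 6 higher and 4 lower, beside 7.71% and 10.6% of all genes (18.3% in all). Median-ratio scaling of FPKM, which moved the median of all genes from 0.067 to 0.00584, likewise left 4 falls and 2 rises. Over all genes that scaling turned 856 higher and 576 lower into 358 and 781. In limma 0 TRIM genes passed without siNC replicate 1 or without siMettl3 replicate 1. There were 3 rises and 1 fall without siNC replicate 2, 2 and 2 without siNC replicate 3, and 1 and 2 without siMettl3 replicate 2 or 3.

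The libraries of the groups did not overlap for 22 of the 35 genes, 17 with every siMettl3 library higher (48.6%) and 5 with every one lower (14.3%). Over all genes these shares were 26.4% and 11.5%, or 37.9% together. Both counts used FPKM without scaling between libraries, where the median-ratio factors were 0.9732 to 0.9862 in siNC and 1.024 to 1.031 in siMettl3. Unscaled siMettl3 values thus ran higher at the median of all genes, and overlap after scaling was not counted. Trim47, Trim35, Trim27, Trim59, Trim41, Trim65, Trim32, Trim23, Trim6, Trim13 and Trim17 were higher without overlap and did not pass, and Trim45 was lower in the same way.

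**Figure D2:**
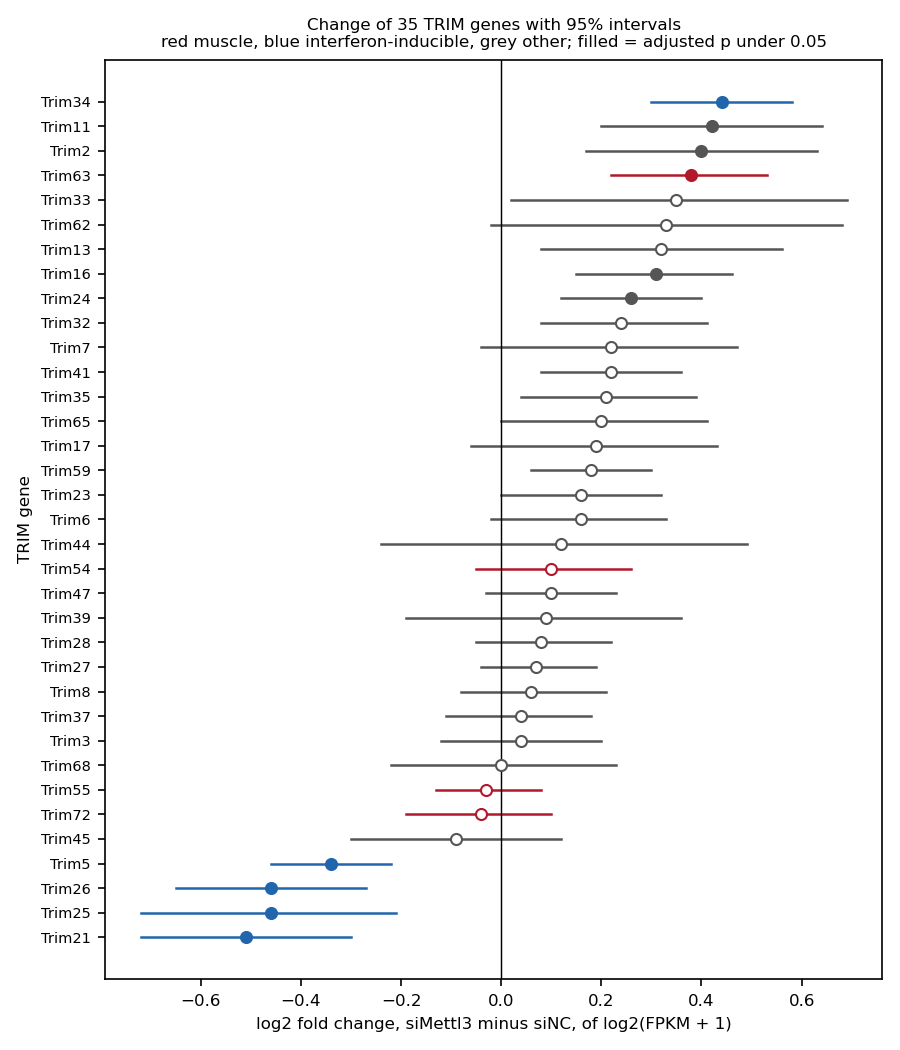
Log2 fold change (siMettl3 minus siNC, on the log2(FPKM + 1) scale) of the 35 TRIM genes tested, with 95% intervals from limma, red for muscle and blue for interferon-inducible members and filled points for adjusted p under 0.05. Trim21, Trim25, Trim26 and Trim5 lie apart from the rest on the left, between -0.51 and -0.34, and Trim34 is the blue point at the upper end, at 0.44.

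Every interferon-inducible TRIM gene that was tested passed, 4 lower and 1 higher, where 4.40% of all genes passed lower and 6.53% higher. The list was chosen with earlier results of these data known. Trim21, the antibody receptor (Ro52), measured 33.0, 32.0 and 36.7 FPKM in siNC and 21.4, 22.8 and 26.4 FPKM in siMettl3 replicates 1 to 3. The highest siMettl3 library lay below the lowest siNC library. Its level was 69.4% of the control. This is -0.51 on the log2 scale by limma (SE 0.0900, adjusted p = 0.0215) and -0.60 by edgeR (adjusted p = 0.0111). It passed without siMettl3 replicate 3 (0.0244) or siNC replicate 3 (0.0479) and was lost without siNC replicate 1 (0.0811) or 2 (0.0507) and without siMettl3 replicate 1 (0.0761) or 2 (0.0641).

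Trim25, the ligase of RIG-I, measured 57.8, 52.8 and 69.5 FPKM in siNC and 39.2, 45.5 and 44.4 FPKM in siMettl3. Replicate 3 of siNC stood above the other control libraries, and the groups did not overlap. On the log2 scale Trim25 fell by 0.46 in limma (SE 0.108, adjusted p = 0.0417) and by 0.56 in edgeR (adjusted p = 0.0250). The limma call was lost whichever library was left out. Dropping control replicate 1, 2 or 3 gave an adjusted p of 0.113, 0.0523 or 0.0579, and dropping knockdown replicate 1, 2 or 3 gave 0.124, 0.0802 or 0.0891. The table places Trim25 on the plus strand of chromosome 10, from 76343847 to 76362145.

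Trim26, a SPRY-domain ligase encoded beside the class I histocompatibility genes, measured 14.8, 14.7 and 15.8 FPKM in siNC and 10, 12 and 10.2 FPKM in siMettl3. All siMettl3 libraries were lower, replicate 2 the least so. The change on the log2 scale was -0.46 (SE 0.0805, limma adjusted p = 0.0215; edgeR -0.57, adjusted p = 0.00957). It passed without siMettl3 replicate 2 (0.0203) and in no other such fit (0.0819, 0.0584 and 0.0513 when a control replicate 1, 2 or 3 was dropped, 0.0806 and 0.0623 for knockdown replicate 1 or 3).

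Trim5, the capsid-binding restriction factor, measured 52.1, 50.2 and 51.2 FPKM in siNC and 38.8, 40.0 and 42.0 FPKM in siMettl3. The spread within either group was small beside the gap between them. This is a log2 fold change of -0.34 (SE 0.0504, limma adjusted p = 0.0143; edgeR -0.42, adjusted p = 0.00553), and the call was lost without siNC replicate 1 (0.0743) or siMettl3 replicate 1 (0.0673). In siNC, replicate 3 was the highest library for Trim21, Trim25 and Trim26 and not for Trim5.

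Trim34, a close relative of Trim5, moved the other way. It measured 18.4, 17.3 and 18.9 FPKM in siNC and 26, 23.8 and 25.0 FPKM in siMettl3, with no overlap. Its log2 fold change came to 0.44 (SE 0.0586, limma adjusted p = 0.0104; edgeR 0.38, adjusted p = 0.0138), or 1.37 times the control. It was lost without siNC replicate 1 (0.0523) or siMettl3 replicate 1 (0.0568).

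In the table's coordinates, whose build is not given in the sources used here, Trim5 and Trim34 are neighbours on chromosome 1. Trim34 lies on the plus strand from 169433539 to 169445041, and Trim5 on the minus strand begins 1764 bases further on and runs from 169446805 to 169534896. Trim6, on the plus strand just before Trim34, measured 3.29 ± 0.125 and 3.78 ± 0.225 FPKM (limma adjusted p = 0.200). Trim30c lies inside the span of Trim5 on the same strand and had at most 45 counts in a library. Trim5, Trim6, Trim30c and Trim34 are paralogues of similar sequence, and how reads shared between them were assigned is not given in the sources used here, so their values are uncertain to that extent.

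Trim69 and Trim14 were too low to be tested at 1 FPKM. Trim69 measured 0.733 ± 0.0910 FPKM in siNC and 0.526 ± 0.0751 in siMettl3, and Trim14, an adaptor of mitochondrial antiviral signalling, 0.315 ± 0.0292 and 0.226 ± 0.0677 FPKM. Both had every siMettl3 library below every siNC library. They were the only 2 of the 20 genes under 1 FPKM without overlap, where 11.5% of all genes tested were lower in this way. For Trim30c, the third interferon-inducible gene under 1 FPKM, the groups overlapped. In a limma fit without the filter neither Trim69 nor Trim14 passed (adjusted p = 0.186 and 0.318), and 0 of the 17 low genes in that fit were called.

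**Figure D3:**
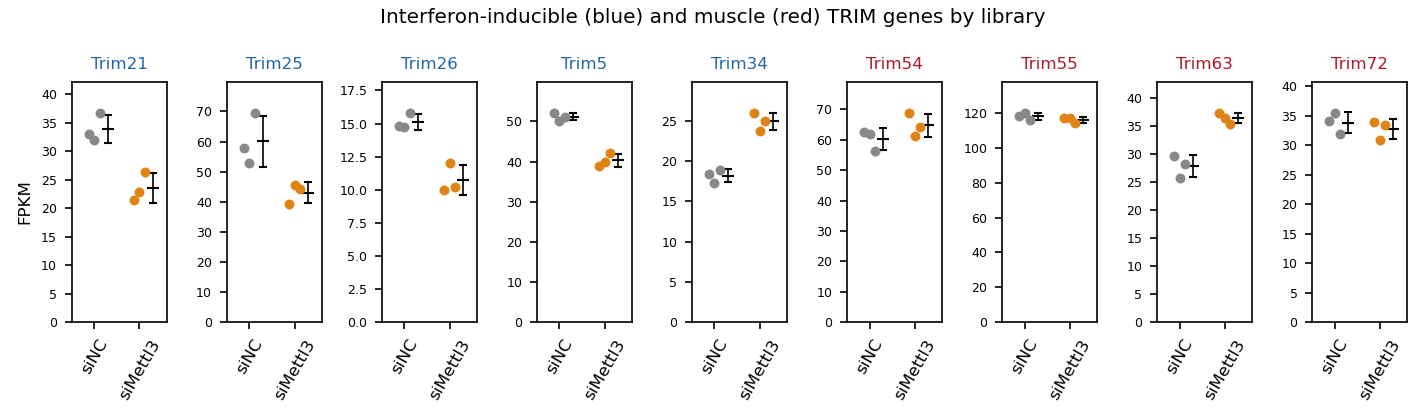
FPKM of the interferon-inducible (blue titles) and muscle (red titles) TRIM genes in each library, grey for siNC and orange for siMettl3, with mean and SD of 3 libraries as black bars and each vertical axis starting at 0. Trim21, Trim25, Trim26 and Trim5 are lower and Trim34 and Trim63 higher in all siMettl3 libraries, while the groups overlap for Trim54, Trim55 and Trim72.

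Partners of Trim25 and the factors that carry the interferon signal were compared from the same fit. Of 11 tested genes around RIG-I and ISG15, the ubiquitin-like modifier that Trim25 also binds, 6 fell and 2 rose, with a median log2 fold change of -0.37. Over all genes 4.40% fell and 6.53% rose, with a median of 0.07. This list too was chosen with earlier results of these data known. RIG-I itself (listed as Ddx58) went from 124 ± 10.3 to 85.3 ± 9.11 FPKM (-0.54, limma adjusted p = 0.0215), and the sensor Ifih1 (MDA5) from 55.4 ± 3.89 to 38.3 ± 4.45 FPKM (-0.52, adjusted p = 0.0217). Zc3hav1, the antiviral protein ZAP whose action needs Trim25, fell from 65.4 ± 4.29 to 48.5 ± 2.90 FPKM (-0.42, adjusted p = 0.0180). Mavs, the adaptor downstream of both sensors, rose from 12 ± 0.266 to 14.8 ± 0.549 FPKM (0.28, adjusted p = 0.0271), though edgeR did not call it (adjusted p = 0.0588).

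Isg15 itself measured 194 ± 31.2 and 184 ± 37.4 FPKM (adjusted p = 0.761). Its activating enzyme Uba7 fell (-0.36) and its deconjugase Usp18 fell from 207 ± 13.3 to 139 ± 20.9 FPKM (-0.58), while its E2 enzyme Ube2l6 rose in limma, just inside the threshold (0.38), and was not called by edgeR (adjusted p = 0.0856). Dhx58 (LGP2) was the remaining fall (-0.40). By edgeR 7 of these genes fell and 0 rose, beside 6.59% and 3.39% of all genes, Herc6 being the further one (-0.46, adjusted p = 0.0284). In limma the falls and rises were 0 and 0 without siNC replicate 1 or siMettl3 replicate 1, 4 and 0 without siNC replicate 2, 4 and 1 without siNC replicate 3, 0 and 1 without siMettl3 replicate 2, and 6 and 0 without siMettl3 replicate 3.

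Of the factors that carry the interferon signal, the transcription factors Stat2 (-0.30, limma adjusted p = 0.0315) and Irf7 (-0.30, adjusted p = 0.0442) fell. The receptor chain Ifnar1 (0.31, limma adjusted p = 0.0228) and the kinase Tyk2 (0.38, adjusted p = 0.0460) rose, the last not by edgeR (adjusted p = 0.0592). With 1 library dropped in limma, Stat2 passed only without siMettl3 replicate 3 (0.0396, otherwise 0.0643 to 0.112) and Ifnar1 only without siNC replicate 3 (0.0358, otherwise 0.0518 to 0.0902). Irf7 and Tyk2 passed in none of these fits (0.0516 to 0.136 and 0.0690 to 0.121).

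Markers of several other cell types were lower in the same libraries, where 4.40% of all genes fell and 6.53% rose. Of 13 macrophage markers found, 8 were tested and 7 fell, among them the complement component C1qb (-1.01), Cd14 (-0.53), C1qa (-1.14) and lysozyme Lyz2 (-0.95). None of the 13 had a count of 0 in all libraries. Their summed level was 83.2 to 101 FPKM in siNC and 43.3 to 56.8 FPKM in siMettl3. In limma the falls numbered 2, 5 and 6 when control replicate 1, 2 or 3 was dropped, and 2, 4 and 6 for knockdown replicate 1, 2 or 3. Of 5 smooth muscle markers 4 fell, with a summed level of 3710 to 4220 FPKM in siNC and 2490 to 2710 FPKM in siMettl3. Dropping 1 library left 1 to 4 of these falls, the 1 being without replicate 1 of either group. Of 11 fibroblast markers 6 fell, with a summed level of 1510 to 1580 FPKM in siNC and 929 to 989 FPKM in siMettl3, and 4 or 5 fell with 1 library dropped. Endothelial markers did not go the same way. Of 5 tested, 2 rose and 1 fell, and the list summed to 19.7 to 22.6 FPKM in siNC and 21.7 to 23.1 FPKM in siMettl3. Dropping 1 library left 0 or 1 of these rises and 0 falls. In bulk samples fewer cells of a type and less RNA per cell cannot be told apart, and the part of these cell types in the TRIM values, the falls and the rises alike, was not tested.

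**Figure D4:**
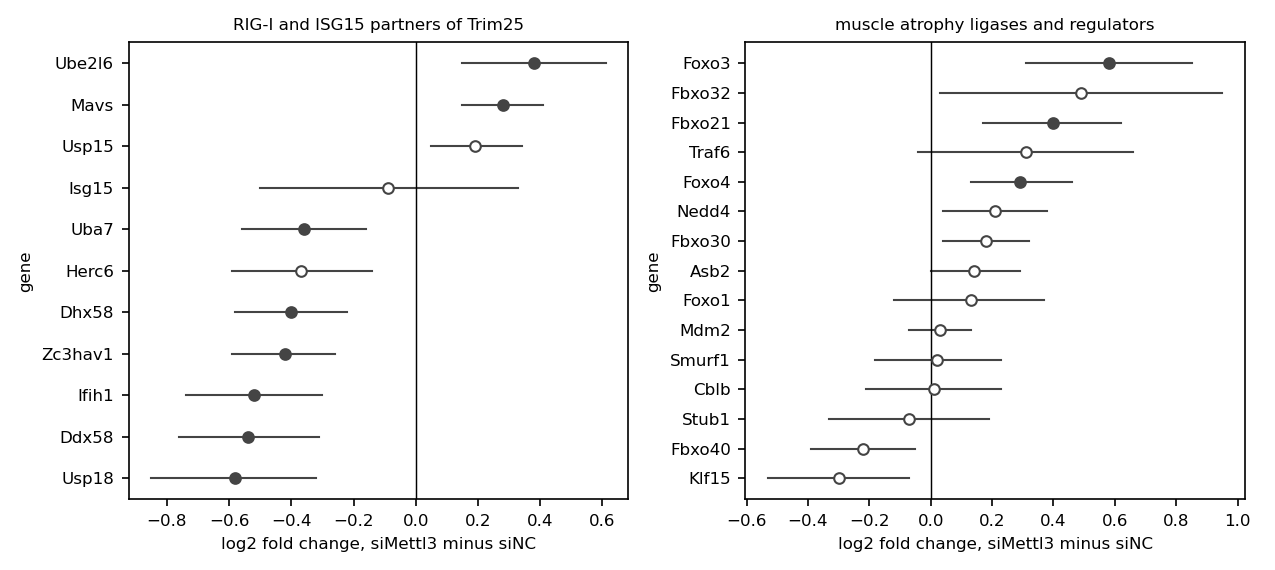
Log2 fold change (siMettl3 minus siNC) with 95% intervals from limma for the tested RIG-I and ISG15 partners of Trim25 (left) and for ligases and regulators of muscle atrophy (right), filled where adjusted p was under 0.05. On the left Usp18, Ddx58, Ifih1, Zc3hav1, Dhx58 and Uba7 are the filled points below 0, and on the right Foxo3, Fbxo21 and Foxo4 are the filled points, all above 0.

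Of the 4 muscle TRIM genes, 1 rose and 3 did not pass. Trim63 (MuRF1) measured 29.6, 25.7 and 28.2 FPKM in siNC and 37.3, 36.4 and 35.4 FPKM in siMettl3. Every siMettl3 library was above every siNC library, and the siMettl3 libraries lay closer together. Trim63 was at 1.31 times the control, a log2 fold change of 0.38 in limma (SE 0.0638, adjusted p = 0.0201) and 0.31 in edgeR (adjusted p = 0.0302). It passed without siNC replicate 2 (0.0496) or 3 (0.0426) and not without siNC replicate 1 (0.0523) or siMettl3 replicates 1, 2 and 3 (0.0806, 0.0551 and 0.0507). The table places it on the plus strand of chromosome 5, from 152533349 to 152547179.

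Trim55 (MuRF2) measured 118, 120 and 116 FPKM in siNC and 117, 117 and 114 FPKM in siMettl3, which overlapped. The log2 fold change was -0.03, with a 95% interval from -0.13 to 0.08 (limma adjusted p = 0.732). Trim54 (MuRF3) measured 62.5, 62.0 and 56.2 FPKM in siNC and 68.8, 61.3 and 64.3 FPKM in siMettl3, with a log2 fold change of 0.10 (-0.05 to 0.26, adjusted p = 0.326). Trim72 (MG53) measured 34.2, 35.5 and 31.9 FPKM in siNC and 33.9, 30.9 and 33.5 FPKM in siMettl3, with a log2 fold change of -0.04 (-0.19 to 0.10, adjusted p = 0.658). The interval of each of these 3 genes holds 0, and those of Trim55 and Trim72 end below the lower bound of Trim63 (0.22).

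The order of levels among the muscle genes changed at the lower end. In both groups Trim55 was above Trim54 and Trim54 above the other two in every library. Trim72 was above Trim63 in siNC, at 31.9 to 35.5 against 25.7 to 29.6 FPKM, and below it in siMettl3, at 30.9 to 33.9 against 35.4 to 37.3 FPKM. FPKM is scaled to transcript length, which allows this comparison between genes.

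Set against the rest of the family, the muscle genes had a median log2 fold change of 0.04 and the other 31 genes one of 0.16, of which 5 rose and 4 fell (29% against 25.0% in the muscle genes and 10.9% over all genes). Over all genes tested the median was 0.07, nearer that of the muscle genes than that of the other 31. The difference of medians between muscle and other genes was -0.12. Taken library by library, as the median of the muscle genes minus that of the other genes after each gene's siNC mean on the log2 scale was subtracted, it was 0.04, 0.05 and -0.05 in siNC and -0.06, -0.18 and -0.06 in siMettl3, with a pooled SD of 0.0639. Every siMettl3 value was below every siNC value, the nearest being -0.05 and -0.06. The siNC values lie around 0 by construction, since their own means were subtracted, so this order is a description and not a test. The difference is given with no p, since the genes were chosen with results of these data known. With quantile normalization it was -0.04.

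Trim63 is best known as a ligase of muscle atrophy. Of 15 tested ligases and regulators of that process 3 rose and 0 fell, with a median log2 fold change of 0.14. Over all genes 6.53% rose and 4.40% fell, with a median of 0.07. The transcription factor Foxo3, a known activator of atrophy ligases, went from 8.14 ± 1.30 to 12.6 ± 0.971 FPKM (0.58, limma adjusted p = 0.0281; edgeR 0.55, adjusted p = 0.0365). Foxo4 (0.29) and the F-box gene Fbxo21 (0.40) rose in limma and not by edgeR (adjusted p = 0.0840 and 0.0654). Fbxo32 (atrogin-1), the ligase usually measured beside MuRF1, was at 9.25 ± 2.59 and 13.2 ± 2.13 FPKM (0.49, adjusted p = 0.141) and was named after its values had been seen. By edgeR 1 gene rose, Foxo3, and 1 fell, the muscle F-box gene Fbxo40 (-0.32, adjusted p = 0.0464). In limma 1 rise was left without siNC replicate 3 or siMettl3 replicate 3, and 0 without any other single library.

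Of 9 tested partners and substrates of the MuRF proteins 2 rose, the autophagy receptor Sqstm1 (121 ± 3.46 to 156 ± 1.24 FPKM, 0.36, limma adjusted p = 0.00958) and the transcription factor Srf (0.26, adjusted p = 0.0337; edgeR adjusted p = 0.0613). edgeR called Sqstm1 higher and the myosin Myh7 lower (-0.33, adjusted p = 0.0204). In limma only 1 rise was left without siNC replicate 2 or 3 or siMettl3 replicate 2 or 3, and 0 without replicate 1 of either group. Of 10 genes known to act with Trim72 in membrane repair or at caveolae, dysferlin (Dysf) rose (0.35) and annexin Anxa1 fell (-0.31). Leaving out any library but siNC replicate 3 left 0 of them past the threshold, and leaving that one out left 1 rise. For both lists, the limma share over all genes was 6.53% higher and 4.40% lower.

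Of 10 cardiomyocyte markers tested beside the muscle TRIM genes, 1 fell (myoglobin Mb, 225 ± 0.890 to 140 ± 28.6 FPKM, -0.70, limma adjusted p = 0.0321) and 0 rose, and edgeR called 3 lower. Over all genes 4.40% fell in limma and 6.59% by edgeR. Mb passed without siMettl3 replicate 2 or 3 and not without another single library. The summed level of the list was 13900 to 15400 FPKM in siNC and 12500 to 14200 FPKM in siMettl3, so the ranges overlapped. Of the skeletal muscle markers 1 of 7 reached 1 FPKM, Mylpf, which fell (-0.65, limma adjusted p = 0.00696). Their part in the Trim63 value was not tested.

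The other rises were 4 genes of different kinds, and none of them passed by edgeR. Trim11, a SPRY-domain ligase, measured 8.02, 9.57 and 8.06 FPKM in siNC and 13.0, 10.9 and 11.4 FPKM in siMettl3 (0.42, limma adjusted p = 0.0371; edgeR adjusted p = 0.0627). Trim2, an NHL-repeat ligase known for neurofilament turnover, measured 3.65, 3.75 and 4.30 FPKM against 5.21, 6.20 and 5.04 FPKM (0.40, adjusted p = 0.0447; edgeR 0.0512). In both the groups did not overlap, with siMettl3 replicate 1 highest for Trim11 and replicate 2 highest for Trim2.

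Trim16, which lacks a RING and acts in the autophagy of damaged endosomes, measured 10.1, 10.9 and 10.9 FPKM in siNC and 13.0, 14.3 and 12.8 FPKM in siMettl3 (0.31, limma adjusted p = 0.0345; edgeR 0.0592). Trim24, a bromodomain cofactor of nuclear receptors, measured 8.22, 7.74 and 7.60 FPKM against 9.85, 9.38 and 9.60 FPKM (0.26, adjusted p = 0.0389; edgeR 0.0730). Trim24 overlaps Svopl on the opposite strand, which had a count of 0 in every library. When 1 library was left out in limma, Trim11 passed without siNC replicate 2 (0.0480) and in no other fit, and Trim2, Trim16 and Trim24 passed in none, with adjusted p from 0.0535 to 0.139, 0.0581 to 0.118 and 0.0766 to 0.127.

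**Figure D5:**
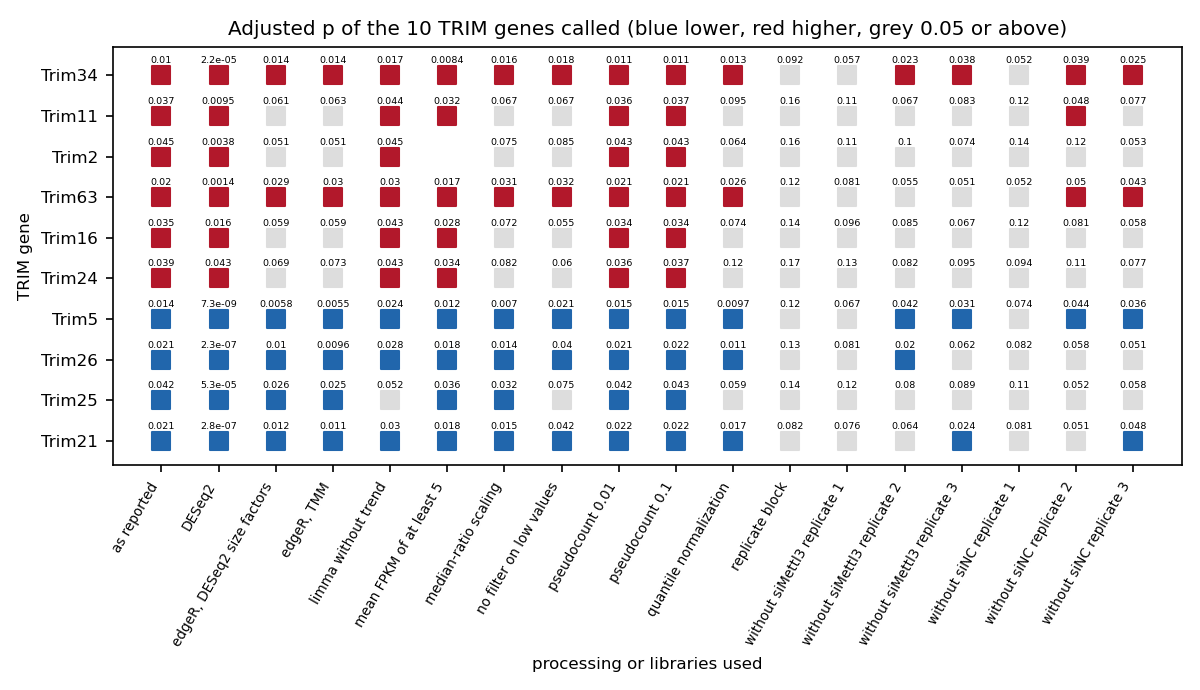
Adjusted p of the 10 TRIM genes called (rows) under each processing or choice of libraries (columns), printed above each square, blue for lower and red for higher in siMettl3 and grey at 0.05 or above; Trim2 has no square where a mean of at least 5 FPKM was required. Trim34, Trim63, Trim5, Trim26 and Trim21 stay coloured in each column from DESeq2 to quantile normalization, and all 10 are grey without replicate 1 of either group and with the replicate number as a block.

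Within the structural classes, members moved to different degrees. Of the bromodomain class, Trim28 measured 93.8 ± 5.16 and 99.4 ± 2.87 FPKM (0.08, limma adjusted p = 0.355) and Trim33, a regulator of transforming growth factor beta signalling, 6.22 ± 1.16 and 8.19 ± 1.25 FPKM (0.35, adjusted p = 0.143), beside the rise of Trim24. Of the NHL-repeat class, Trim3 measured 8.69 ± 0.621 and 8.95 ± 0.245 FPKM (0.04, adjusted p = 0.711). Trim32, a ligase of muscle whose human gene is mutated in a limb-girdle dystrophy, measured 7.28 ± 0.0891 and 8.82 ± 0.651 FPKM (0.24, adjusted p = 0.0655). Trim32 lies within Astn2 on the opposite strand, which was at 5.58 FPKM, and without stated strand the reads of the pair cannot be told apart.

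The membrane-anchored Trim13 and Trim59, which sit in the endoplasmic reticulum, measured 2.27 ± 0.308 and 3.08 ± 0.250 FPKM (0.32, limma adjusted p = 0.0842) and 13.5 ± 0.316 and 15.4 ± 0.311 FPKM (0.18, adjusted p = 0.0671). Trim37, with a MATH domain, Trim23, with an ARF domain, and Trim45, with a filamin repeat, had log2 fold changes of 0.04, 0.16 and -0.09 and did not pass. Trim37 overlaps Ppm1e on the opposite strand, at 2.91 FPKM, so the same limit holds for it. The 15 remaining tested members had a median of 0.19 and a range of 0.00 to 0.42, beside a median of 0.07 over all genes tested. Trim11 and Trim16 were the 2 that passed in limma (13.3%, near the 10.9% of all genes), and edgeR called 0 of the 15.

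TRIM proteins whose genes carry other symbols were not members by the rule, and 5 of 9 were tested. Pml, the organiser of nuclear bodies (Trim19), measured 44.4 ± 5.06 and 35.5 ± 2.73 FPKM (-0.31, limma adjusted p = 0.0802) and was called lower by edgeR (-0.40, adjusted p = 0.0443). Rnf207, a cardiac ligase, measured 22.1 ± 1.02 and 19.4 ± 0.697 FPKM (-0.18, adjusted p = 0.0901; edgeR -0.26, adjusted p = 0.0351). The midline genes Mid1 and Mid2 and the muscle gene Cmya5 had log2 fold changes of -0.18, -0.14 and 0.37 and passed by neither.

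Of 13 tested E1 and E2 genes, whose enzymes supply ubiquitin to these ligases, 0 were called by limma, edgeR or DESeq2. Over all genes these methods called 10.9%, 9.98% and 18.3%, so few calls would be looked for among 13 genes. An unadjusted limma p under 0.05 was found for 3, and the share of all genes at that level is not given here. With a pseudocount of 0.1 or 0.01, or for genes averaging 5 FPKM or more, limma called 1 of these 13 genes higher. The closest was the endoplasmic reticulum E2 Ube2j1 (16.8 ± 0.736 and 19.7 ± 0.357 FPKM, 0.21, limma adjusted p = 0.0501). Uba1, the main E1 enzyme, measured 106 ± 1.78 and 108 ± 1.42 FPKM, and Ube2d3, an E2 that many RING ligases use, 123 ± 5.92 and 127 ± 1.34 FPKM.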

How the data were processed

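RNA was measured in 6 libraries, 3 per group. FPKM were deposited by the authors, with 0.0001 standing for no reads, and whole-number counts were deposited by the authors beside them, per the file headers. Bowtie 0.12.2 and mm8, a mouse build, appear in the submitters' processing notes with no step attached. The aligner, build, annotation, strand setting and quantifier of this rat table are not given in the sources used here.

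Members were chosen by symbol, and the members and lists were chosen with earlier results of these data known. The main test was limma 3.58.1 (R 4.3.3, trended variances) on log2(FPKM + 1) for 13105 genes averaging 1 FPKM or more, which compresses the change of low genes. The test was set for FPKM. Since counts were present too, edgeR 4.0.16 (quasi-likelihood on those counts) is given beside it, and DESeq2 1.42.0 was an alternative. Scripts were tested on simulated data. Genes were named by rule: all muscle and all tested interferon-inducible members, every other member called, the 5 most abundant, those next to the threshold, TRIM genes under other symbols, and up to 4 called genes per list. Beyond these, further members and list genes were named after their values were seen. Replicates of a group differed by far more than counting error (chi-square per degree of freedom 25.8 to 77.3). Same-numbered libraries did not deviate together. One result of the interferon signalling list is not reported here, nor are counts over that list.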

Additional observations from a re-analysis of the deposited data

How the results depend on the processing

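Among all genes tested, the numbers called higher and lower were 856 and 576. They were 1010 and 1384 by DESeq2, 444 and 864 by edgeR, 452 and 841 by edgeR with DESeq2 size factors, 358 and 781 after median-ratio scaling, 469 and 752 after quantile normalization and 500 and 403 without a filter. With 1 library left out they ranged from 83 to 471 higher and from 123 to 390 lower, where fewer libraries lower the power by construction.

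The TRIM genes called numbered 6 higher and 4 lower. The rises were 2 by edgeR with either scaling, after median-ratio scaling, after quantile normalization and without a filter. The falls were 3 after quantile normalization, without a filter and without the variance trend, where Trim25 was the gene lost each time (adjusted p = 0.0586, 0.0750 and 0.0524). With 1 library left out there were 0 to 3 rises and 0 to 2 falls. The pseudocounts of 0.1 and 0.01 changed no TRIM call. The difference of medians between muscle and other TRIM genes was -0.12, -0.04 after quantile normalization and -0.17 to -0.07 with 1 library left out. The cause of these changes was not tested.

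With the replicate number as a block, 1 gene was higher and 5 lower over all genes, and 0 TRIM genes passed in either direction. The labels number the libraries 1 to 3 in both groups, but the deviations of same-numbered libraries from their group means had correlations of 0.0346, -0.255 and -0.119, so the numbers were not taken as pairs.

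Among genes that did not pass, the sign turned as follows. Trim55 was 0.01 after quantile normalization. Trim8 was -0.01 by edgeR, with either scaling, and by DESeq2 and -0.0038 after median-ratio scaling. Trim37 was -0.03 by edgeR with either scaling, by DESeq2 and after median-ratio scaling, and -0.04 after quantile normalization. Trim3 was -0.03 by edgeR with either scaling and by DESeq2, -0.02 after median-ratio scaling, -0.04 after quantile normalization and -0.01 (without siNC replicate 3) to 0.07 with 1 library left out. Trim68 was -0.07 by edgeR with either scaling, by DESeq2 and after quantile normalization, -0.05 after median-ratio scaling, and -0.04 to 0.07 with 1 library left out, below 0 in 4 of these fits. With 1 library left out, Trim39 was -0.01 (without siNC replicate 3) to 0.17 and Isg15 was -0.23 to 0.06 (without siMettl3 replicate 2).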
